A study of Homo sapiens with 16 samples.

Results

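The genes described here carry out and regulate the repair of DNA interstrand crosslinks, the Fanconi anemia pathway included. They were listed by symbol and by what their products do. The rule uses no measured value, although the list was drawn up with earlier results of these data known. All 41 were found among the 60649 genes counted and among the 19103 genes kept by the filter on low counts. The question they address is whether genes for the repair of a crosslink were transcribed at another level in mesenchymal stem cells (MSCs) made senescent with a crosslinking agent, and whether growth differentiation factor 11 (GDF11) moved them. Poly(A) RNA was sequenced from ASC52telo, a single adipose-derived MSC line immortalized with telomerase reverse transcriptase, in 4 groups of 4 biological replicates. MmC-/GDF11- were untreated "young" cells, and MmC-/GDF11+ were young cells given GDF11. MmC+/GDF11- were cells made senescent with mitomycin C (MmC, 1.5 µg/mL for 18 h), and MmC+/GDF11+ were senescent cells given GDF11. GDF11 was given at 10 ng/mL over the 10 days that followed MmC, and every group was collected after these 10 days. All libraries were of the wild-type line grown with serum and carried the same sequencing run label. The study names batch effects of technical origin among its limits, and the labels do not say which libraries these concern. The MmC+ and MmC- cells therefore differed in exposure 10 days earlier, and no library was made during the exposure itself.

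A crosslink ties the strands of DNA together and blocks both replication and transcription. At a stalled fork FANCM with FAAP24 anchors the Fanconi core complex, which with the E2 enzyme UBE2T attaches ubiquitin to FANCD2 and FANCI (the ID2 complex). Nucleases held by the scaffold SLX4 then unhook the lesion, translesion polymerases fill the gap, and homologous recombination with BRCA1, BRCA2 and their partners rebuilds the broken strand, after which USP1 with WDR48 removes the ubiquitin. MmC makes such crosslinks, and cells that lack these genes are known for their sensitivity to it.

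Levels are given as CPM (counts scaled to library size) after TMM scaling, in the order of replicates 1 to 4, and fold changes on the log2 scale as MmC+ over MmC-. A gene is called higher or lower where the Benjamini-Hochberg adjusted p of the edgeR quasi-likelihood test over all 19103 genes was under 0.05. Total counts lay between 71275337 and 144204979 per library. Replicate 1 stood apart in all groups on the second principal component, which held 12.2% of the variance against 64.8% for the first, along which MmC+ and MmC- libraries separated. Replicate 1 was the lowest of its group for 23 and 9 of the 41 members in young cells without and with GDF11, and for 26 and 30 in senescent cells, so results that rest on it are also given without it. In MmC+ the summed level of 23 proliferation markers was lowest in the same replicate, at 561 CPM without and 558 CPM with GDF11, where the other MmC+ libraries had 1013 to 1123. The 5 MSC surface markers summed to 4735 to 6428 CPM over all libraries, with ITGB1 (integrin beta 1) alone at 1636 to 2717. Their log2 fold changes lay on both sides of 0, from -0.58 to 0.38 without and -0.43 to 0.40 with GDF11. Markers of other cell types were not all absent (KRT18, below), while HLA-DRA was listed at 0 in every library. So was GTF2H4, a gene that every cell uses, so a listed 0 does not show that a gene was not transcribed. These are bulk samples, in which fewer cells of a type and less RNA per cell cannot be told apart.

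The upstream sequence of 5 members is shown because these genes span the result given next, 4 of them from 3 steps of the pathway that were lower in MmC+ libraries and one, WDR48, that was not called. Each run starts 250 bases before a transcription start listed by RefSeq (GRCh38.p14) and holds the first 20 transcribed bases, 5′ to 3′ on the gene's strand. Capitals mark matches, on either strand, to CCAAT (a box bound by NF-Y), to TTTGAA or TTCGAA (forms of the cell cycle homology region) and to TTTCCCGC, TTTGGCGC, TTTCGCGC or TTTGCCGC (forms of the E2F site).
FANCD2, chr3:10026187-10026456, plus strand: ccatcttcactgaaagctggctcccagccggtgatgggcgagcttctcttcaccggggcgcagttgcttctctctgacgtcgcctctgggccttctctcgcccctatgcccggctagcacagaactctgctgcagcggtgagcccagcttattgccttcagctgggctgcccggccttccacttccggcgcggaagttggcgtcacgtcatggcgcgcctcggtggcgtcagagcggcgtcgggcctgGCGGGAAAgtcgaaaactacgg
FANCF, chr11:22625804-22626073, minus strand: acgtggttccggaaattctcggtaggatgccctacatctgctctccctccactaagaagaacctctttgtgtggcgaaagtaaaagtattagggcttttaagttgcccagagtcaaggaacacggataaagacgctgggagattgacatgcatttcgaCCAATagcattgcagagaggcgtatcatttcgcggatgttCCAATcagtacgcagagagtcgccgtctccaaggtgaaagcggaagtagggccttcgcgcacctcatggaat
UBE2T, chr1:202341917-202342186, minus strand: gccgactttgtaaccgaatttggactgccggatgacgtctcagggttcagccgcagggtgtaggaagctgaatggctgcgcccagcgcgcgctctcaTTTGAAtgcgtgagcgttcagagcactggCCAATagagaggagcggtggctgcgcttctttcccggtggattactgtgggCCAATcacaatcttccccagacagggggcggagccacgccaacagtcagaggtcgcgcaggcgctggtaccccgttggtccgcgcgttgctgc
RMI1, chr9:83980109-83980378, plus strand: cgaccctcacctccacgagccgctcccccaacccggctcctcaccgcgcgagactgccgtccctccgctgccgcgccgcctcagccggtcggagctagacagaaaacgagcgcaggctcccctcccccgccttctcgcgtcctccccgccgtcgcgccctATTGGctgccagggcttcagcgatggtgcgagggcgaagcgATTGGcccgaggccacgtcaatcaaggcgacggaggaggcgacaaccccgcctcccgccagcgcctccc
WDR48, chr3:39051766-39052035, plus strand: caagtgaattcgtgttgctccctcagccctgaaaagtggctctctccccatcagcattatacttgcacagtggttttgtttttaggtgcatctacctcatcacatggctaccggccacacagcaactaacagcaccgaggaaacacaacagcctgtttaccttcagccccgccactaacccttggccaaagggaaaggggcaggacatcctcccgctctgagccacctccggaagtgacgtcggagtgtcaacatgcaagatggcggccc
The FANCD2 window held 1 E2F form, on the opposite strand at position -2 from the start. FANCF held CCAAT at positions -92 and -52, UBE2T held it at -124 and -73 with TTTGAA at -153, and RMI1 held it on the opposite strand at -90 and -49. The WDR48 window held none of these letters. It does not stand for all members not called: windows of RFWD3, BLM, BRIP1 and ERCC1, also not called, each held several CCAAT. Shares over all members are given below. RMI1 and WDR48 each have 2 listed starts, of which the first is shown. The RMI1 run shown ends upstream of the start of the GENCODE gene at chr9:83980798. The other RMI1 window, which begins at 83980555, spans that gene start. It held TTTGCCGC on the opposite strand at -32 and no CCAAT.

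Windows were listed for 39 of the 41 members, FANCI and RMI2 having none, and they numbered 53 because some genes have several starts. CCAAT was in 11 of the 22 windows (50.0%) of the 17 members lower in both MmC comparisons below and in 9 of 31 (29.0%) of the other members, against 34.6% of all 35116 promoter windows. An E2F form was in 4 of 22 (18.2%) and 2 of 31 (6.45%), against 3.31% of all windows. TTTGAA or TTCGAA was in 4 of 22 (18.2%) and 4 of 31 (12.9%), against 16.4% of all. These shares are descriptions of letters in fixed windows, the 3 kinds of motif do not overlap in the sequences shown, and no test was made of them.

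In senescent MSCs the crosslink repair genes fell more often than they rose. Without GDF11, 18 of 41 members were lower in MmC+ libraries (43.9%), where 22.4% of all genes tested were, and 1 was higher (HELQ), where 22.9% of all genes were. The share called in either direction, 19 of 41, was near that of all genes (45.3%). Their median log2 fold change was -0.47, against -0.01 for all genes. With GDF11, 18 members were lower (43.9%, against 23.3% of all genes), none was higher (23.4% of all genes), and the share called in either direction for all genes was 46.7%. The median was then -0.41 for the members and -0.01 for all genes. Both comparisons called 17 members, all lower, while REV1 (lower) and HELQ (higher) were called without GDF11 alone, FANCL (lower) with GDF11 alone, and 21 members in neither.

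The 4 MmC+ libraries lay below all 4 MmC- libraries for 16 members without GDF11 and for 18 with it, against 18.2% and 21.2% of all genes. For no member did they lie above all 4, against 19.1% and 20.2% of all genes. Most estimates were of less than 2-fold, while those of FANCD2, RMI1, FANCA and EME1 were larger falls in both comparisons. Tested against a 2-fold change, 0 members were called without GDF11 and 1, FANCD2, with it. Of all genes 6.77% and 6.46% were called in that test. A member not called there is not shown to have changed by less than 2-fold. The 2 MmC comparisons use different libraries but share the replicate numbers and 1 fit with its estimate of spread, so they are not independent. Same-numbered MmC+ libraries without and with GDF11 correlated across genes in their deviations from the group means (r 0.448 to 0.818). The plot of log2 fold changes by role groups the members by step of the pathway. Lower in the comparisons without and with GDF11 were 8 and 9 of the 11 genes of the core complex, its anchor and its E2, 2 and 2 of the 4 of the ID2 complex and its deubiquitinase, 4 and 4 of the 8 nucleases and their scaffold, 2 and 1 of 5 of the translesion group, 1 and 1 of 4 of the BLM dissolvasome, 1 and 1 of the 2 ATR kinase genes, and 0 and 0 of the 7 homologous recombination effectors. Whether these shares differ between roles was not tested. These counts are from the fit without a replicate block. With the block FANCE, FANCL, BRIP1 (a recombination effector), DCLRE1B and BLM were also called lower without GDF11, where 57.9% of all genes were called in either direction. With GDF11, where same-numbered libraries were not taken as pairs, it added FANCB, FANCE, FANCI, BRIP1, XRCC2, DCLRE1B, REV1 and BLM. There 59% of all genes were called in either direction.

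**Figure D1:**
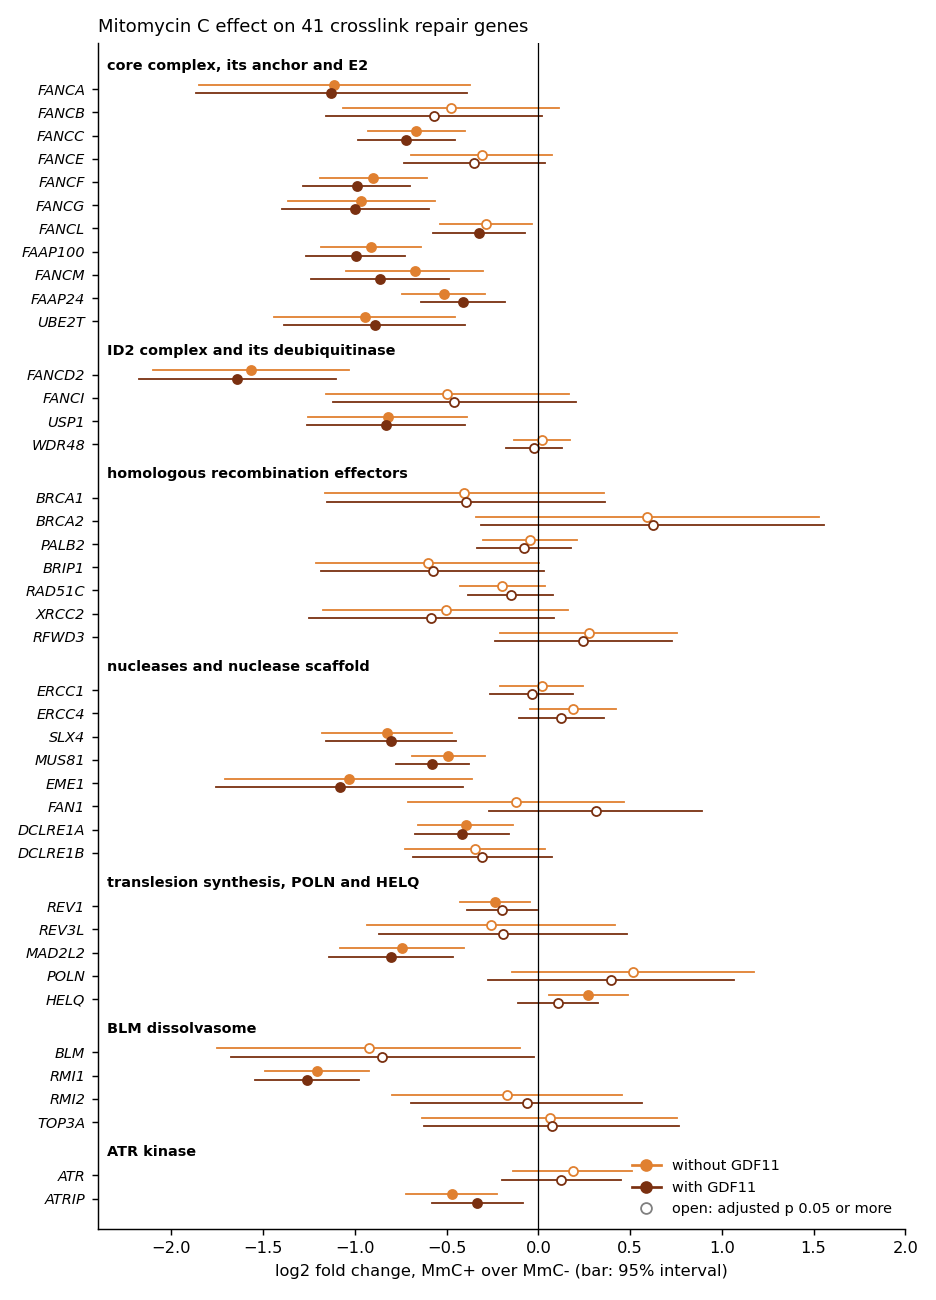
Log2 fold change of MmC+ over MmC- for each of the 41 members, grouped by role, without GDF11 (orange) and with GDF11 (brown), from 4 against 4 libraries, where bars are 95% intervals, filled points are called and open points are not. FANCD2 and RMI1 lie farthest to the left, all 11 core complex genes lie below 0 in both comparisons, and no homologous recombination effector is filled.

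The core complex, its anchor and its E2 held the largest share of members called. All 11 estimates were below 0, with medians of -0.67 without and -0.86 with GDF11. FANCA was at 8.26, 16.2, 15.9 and 23.6 CPM in young cells, 13, 17, 14.2 and 19.8 in young cells with GDF11, 3.55, 9.60, 7.77 and 8.74 in senescent cells and 3.53, 8.60, 8.88 and 8.19 in senescent cells with GDF11. FANCA, which lies at chr16:89726683-89816977 (hg38) and whose product forms a module with that of FANCG, was lowest in replicate 1 of each MmC+ group, and without GDF11 replicate 1 of MmC-/GDF11- lay among the MmC+ libraries, while with GDF11 the groups did not overlap. Its log2 fold change was -1.11 (SE 0.35, adjusted p = 0.0166) without GDF11 and -1.13 (SE 0.35, adjusted p = 0.0149) with it. FANCG was at 14.5, 22.8, 18.5 and 22.1 CPM in young cells, 18.6, 21.1, 18.5 and 20.7 in young cells with GDF11, 6.72, 12, 11 and 10.2 in senescent cells and 6.86, 10.6, 12.2 and 9.87 in senescent cells with GDF11. Every MmC+ library lay below every MmC- library. For FANCG the log2 fold change was -0.96 (SE 0.19, adjusted p = 7.04e-04) without GDF11 and -1.0 (SE 0.19, adjusted p = 5.32e-04) with it.

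FAAP100 was at 47.8, 55.7, 46.8 and 50.9 CPM in young cells, 45.2, 61.9, 49.5 and 48.3 in young cells with GDF11, 31.3, 28.5, 23.5 and 23.5 in senescent cells and 31.5, 24, 23.3 and 24 in senescent cells with GDF11. FAAP100, which joins FANCB and the ubiquitin ligase FANCL in the catalytic module, was among the members highest per kb of exon in young cells (median 9.22 CPM per kb in MmC-/GDF11-) and its groups did not overlap. For FAAP100 the log2 fold change was -0.91 (SE 0.13, adjusted p = 3.85e-05) without GDF11 and -1.0 (SE 0.13, adjusted p = 1.70e-05) with it, and replicate 1 was here the highest MmC+ library. FANCL was at 8.42, 10.0, 9.86 and 10.5 CPM in young cells, 9.03, 10.5, 9.22 and 11.2 in young cells with GDF11, 6.54, 8.36, 8.90 and 8.09 in senescent cells and 6.82, 8.23, 8.50 and 8.34 in senescent cells with GDF11. The difference in FANCL was small beside that of FAAP100, with groups that overlapped from 8.42 to 8.90 CPM without GDF11 and did not overlap with it. For FANCL the log2 fold change was -0.28 (SE 0.12, adjusted p = 0.0611) without GDF11 and -0.32 (SE 0.12, adjusted p = 0.0351) with it. With replicate numbers as a block FANCL was called without GDF11 too (adjusted p = 0.00585), while leaving out 1 library could end the call with GDF11 (adjusted p = 0.0540 to 0.121 without replicates 2 or 4 of MmC-/GDF11+ or any replicate of MmC+/GDF11+). FANCB, the third gene of that module, averaged 2.22 ± 0.557 CPM in young and 1.60 ± 0.412 in senescent cells not given GDF11, with log2 fold changes of -0.47 (SE 0.28, adjusted p = 0.176) and -0.57 (SE 0.28, adjusted p = 0.103). Without replicate 1 in any group FANCB was called lower without GDF11 (log2 fold change -0.47, adjusted p = 0.0411).

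FANCF was at 8.63, 8.80, 7.89 and 8.68 CPM in young cells, 7.46, 9.78, 8.50 and 8.84 in young cells with GDF11, 5.70, 4.44, 4.06 and 4.02 in senescent cells and 5.39, 3.97, 3.84 and 4.24 in senescent cells with GDF11. FANCF, an adaptor of the substrate-binding module whose promoter is shown above, was lower in every MmC+ library than in any MmC- library, and replicate 1 was the highest of these in both groups. For FANCF the log2 fold change was -0.90 (SE 0.14, adjusted p = 8.38e-05) without GDF11 and -0.99 (SE 0.14, adjusted p = 3.46e-05) with it. FANCC was at 9.85, 12.9, 12.6 and 15.2 CPM in young cells, 12.5, 13.5, 11.6 and 14.7 in young cells with GDF11, 8.26, 8.27, 7.19 and 8.13 in senescent cells and 6.93, 8.78, 8.21 and 7.87 in senescent cells with GDF11. Its partner FANCC also had no overlap between MmC+ and MmC- libraries, although without GDF11 they came as near as 8.27 and 9.85 CPM. For FANCC the log2 fold change was -0.67 (SE 0.13, adjusted p = 4.77e-04) without GDF11 and -0.72 (SE 0.13, adjusted p = 2.48e-04) with it. FANCE, which joins them to FANCD2, averaged 10.3 ± 0.845 CPM in young and 8.31 ± 1.86 in senescent cells not given GDF11, and its log2 fold changes of -0.31 (SE 0.18, adjusted p = 0.177) and -0.35 (SE 0.18, adjusted p = 0.125) were not called, while the former was called with the replicate block (adjusted p = 0.0201), which applies to the comparison without GDF11, where same-numbered libraries were taken as pairs.

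FANCM was at 5.59, 5.22, 6.85 and 9.12 CPM in young cells, 8.02, 6.77, 6.19 and 8.65 in young cells with GDF11, 3.80, 3.58, 4.63 and 4.80 in senescent cells and 3.72, 3.68, 4.88 and 4.01 in senescent cells with GDF11. FANCM, the translocase that anchors the complex on DNA, lay at 3.58 to 4.88 CPM in MmC+ libraries and at 5.22 or more in MmC- libraries. Its log2 fold change was -0.67 (SE 0.18, adjusted p = 0.00559) without GDF11 and -0.86 (SE 0.18, adjusted p = 9.41e-04) with it. FAAP24 was at 7.95, 9.23, 7.42 and 6.68 CPM in young cells, 7.89, 7.16, 7.53 and 7.55 in young cells with GDF11, 5.33, 5.64, 5.12 and 5.78 in senescent cells and 5.70, 5.99, 5.06 and 5.92 in senescent cells with GDF11. FAAP24, the partner of FANCM, lay at no more than 5.99 CPM in MmC+ libraries and no less than 6.68 in MmC- libraries. The log2 fold change was -0.52 (SE 0.11, adjusted p = 0.00106) without GDF11 and -0.41 (SE 0.11, adjusted p = 0.00520) with it. UBE2T was at 12.2, 22.4, 20.5 and 19.7 CPM in young cells, 20.4, 18.4, 21.1 and 19.2 in young cells with GDF11, 5.88, 11, 10.7 and 11.3 in senescent cells and 6.34, 12.3, 12.4 and 11.5 in senescent cells with GDF11. UBE2T, the E2 enzyme, was lowest in replicate 1 of both MmC+ groups and did not overlap within either comparison, and its log2 fold change was -0.94 (SE 0.23, adjusted p = 0.00377) without GDF11 and -0.89 (SE 0.23, adjusted p = 0.00523) with it.

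FANCD2 had the largest estimated change of the 41 members in both comparisons. FANCI, the other subunit of the ID2 complex, was not called in the fit without a replicate block. FANCD2 was at 12.2, 19.3, 20.3 and 26.5 CPM in young cells, 19, 21.2, 16.5 and 24 in young cells with GDF11, 4.23, 7.74, 7.02 and 7.45 in senescent cells and 3.84, 7.26, 7.68 and 7.09 in senescent cells with GDF11. FANCD2 lies at chr3:10026370-10101932 (hg38, plus strand), and ubiquitin on its product marks the activated pathway. The highest MmC+ library stood below the lowest MmC- library, and replicate 1 was again the lowest in both MmC+ groups. The log2 fold change was -1.57 (SE 0.25, adjusted p = 1.41e-04) without GDF11 and -1.64 (SE 0.25, adjusted p = 9.48e-05) with it. FANCI was at 30.1, 50.9, 58.8 and 70.9 CPM in young cells, 48.9, 49.8, 43.8 and 61.8 in young cells with GDF11, 19, 46.1, 41.4 and 43 in senescent cells and 18.4, 44, 46.3 and 40.1 in senescent cells with GDF11. MmC+ replicate 1 was far below its group. Without GDF11 the other MmC+ libraries lay above replicate 1 of MmC-/GDF11- but below its replicates 2 to 4. FANCI was lower with MmC in each same-numbered pair there, and was not called with the replicate block (adjusted p = 0.0513). With GDF11 MmC+ replicates 2 and 3 overlapped with the MmC- libraries. In that comparison FANCI was called lower with the block (log2 fold change -0.56, adjusted p = 0.0344), although numbers were not taken as pairs there. For FANCI the log2 fold change was -0.50 (SE 0.31, adjusted p = 0.209) without GDF11 and -0.46 (SE 0.31, adjusted p = 0.246) with it. Without replicate 1 in any group FANCI was called without GDF11 (log2 fold change -0.47, adjusted p = 0.00912), where the comparison holds 3 libraries a group.

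Within a library the ratio of FANCD2 to FANCI CPM does not depend on the scaling. It was 0.344 to 0.406 in young cells and 0.377 to 0.426 in young cells with GDF11, but 0.168 to 0.223 in senescent cells and 0.165 to 0.209 in senescent cells with GDF11. The 8 MmC+ libraries thus lay below the 8 MmC- libraries, replicate 1 included. This pair and the others given as ratios were chosen after their values were seen, and the ratios were not tested. For FANCA to FANCG, also partners, the ratio was 0.569 to 1.07 in young and 0.528 to 0.854 in senescent cells not given GDF11, and for EME1 to MUS81 0.152 to 0.350 and 0.0872 to 0.190, so these ratios overlapped.

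USP1 was at 49.5, 52.3, 71 and 78.7 CPM in young cells, 59.9, 61.8, 57.9 and 75.9 in young cells with GDF11, 23.8, 36.6, 37.4 and 44.6 in senescent cells and 24.5, 35.8, 40 and 43.5 in senescent cells with GDF11. USP1, which takes ubiquitin off FANCD2, was the member highest per kb of exon in MmC-/GDF11- (median 15.9 CPM per kb, with a range that overlapped that of ERCC1), and its MmC+ and MmC- libraries did not overlap. For USP1 the log2 fold change was -0.82 (SE 0.20, adjusted p = 0.00396) without GDF11 and -0.83 (SE 0.20, adjusted p = 0.00358) with it. Its partner WDR48 averaged 42.7 ± 2.91 CPM in young cells, 45.4 ± 1.59 in young cells with GDF11, 43.3 ± 2.49 in senescent cells and 44.7 ± 1.54 in senescent cells with GDF11 (mean ± SD, n = 4, as for all averages here). Its log2 fold changes of 0.02 (SE 0.07, adjusted p = 0.850) and -0.02 (SE 0.07, adjusted p = 0.801) had 95% intervals of -0.13 to 0.17 and -0.18 to 0.13, and the sign of the latter turned with upper-quartile scaling and with a minimum of 10 counts in every library. The ratio of USP1 to WDR48 CPM was 1.15 to 2.05 in young and 0.557 to 1.0 in senescent cells not given GDF11.

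**Figure D2:**
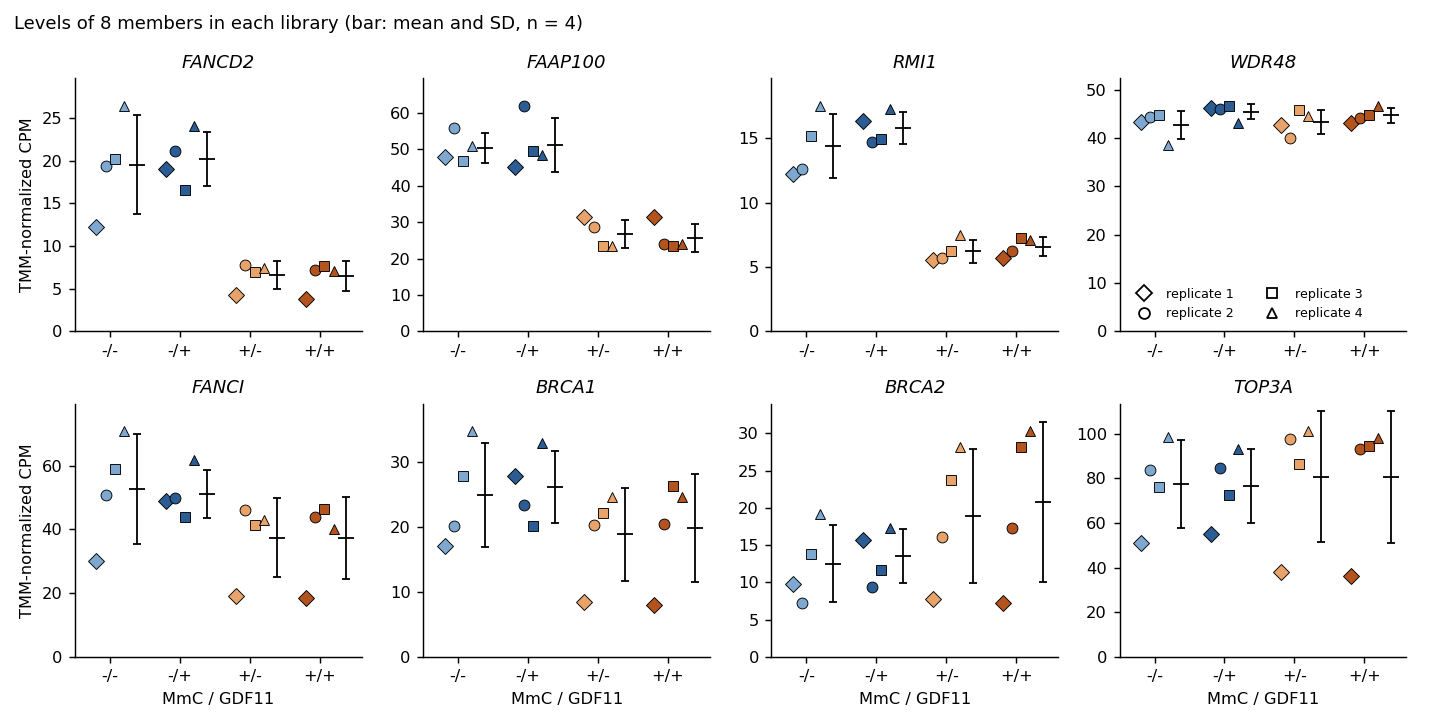
TMM-normalized CPM of 8 members in each of the 16 libraries, by MmC/GDF11 group, with symbols for replicate number and bars for the mean and SD (n = 4), on axes that start at 0. MmC+ libraries lie below MmC- libraries for FANCD2, FAAP100 and RMI1, WDR48 is level across groups, and replicate 1 (diamonds) is the lowest MmC+ library for FANCI, BRCA1, BRCA2 and TOP3A.

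No homologous recombination effector was called in either comparison in the fit without a replicate block. BRCA1 was at 17, 20.2, 27.8 and 34.8 CPM in young cells, 27.8, 23.4, 20.1 and 32.9 in young cells with GDF11, 8.44, 20.2, 22.1 and 24.6 in senescent cells and 8.01, 20.5, 26.2 and 24.6 in senescent cells with GDF11. BRCA1, which directs breaks toward recombination, spread over a wide range in every group, and MmC+ replicate 1 was far below the rest. Its log2 fold change was -0.40 (SE 0.36, adjusted p = 0.379) without GDF11 and -0.39 (SE 0.36, adjusted p = 0.387) with it. BRCA2 was at 9.84, 7.26, 13.8 and 19.2 CPM in young cells, 15.7, 9.36, 11.7 and 17.2 in young cells with GDF11, 7.70, 16.1, 23.8 and 28.1 in senescent cells and 7.18, 17.3, 28.2 and 30.3 in senescent cells with GDF11. BRCA2, which is needed for homologous recombination, was at 16.1 to 30.3 CPM in MmC+ replicates 2 to 4 and at 7.18 and 7.70 in replicate 1, so the groups overlapped. For BRCA2 the log2 fold change was 0.59 (SE 0.44, adjusted p = 0.287) without GDF11 and 0.62 (SE 0.44, adjusted p = 0.261) with it. Without replicate 1 in any group the BRCA2 estimate with GDF11 was 0.99 and was called higher (adjusted p = 0.0443).

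The ratio of BRCA1 to BRCA2 CPM within a library was 1.73 to 2.78 in young cells and 1.72 to 2.50 in young cells with GDF11, and 0.876 to 1.26 and 0.811 to 1.18 in the senescent groups without and with it. The MmC+ and MmC- libraries did not overlap in the ratio although they did in the level of each gene.

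The other 5 effectors had estimates on both sides of 0. BRIP1 averaged 14.6 ± 5.17 CPM in young and 9.60 ± 2.79 in senescent cells not given GDF11, and its log2 fold change was -0.60 (SE 0.29, adjusted p = 0.0978) without and -0.57 (SE 0.29, adjusted p = 0.111) with GDF11. BRIP1, a helicase that binds BRCA1, was called lower with the replicate block in both comparisons (adjusted p = 0.0431 without and 0.0375 with GDF11). XRCC2 averaged 4.04 ± 1.59 CPM in young and 2.85 ± 0.904 in senescent cells not given GDF11, and its log2 fold change was -0.50 (SE 0.32, adjusted p = 0.205) without and -0.58 (SE 0.31, adjusted p = 0.140) with GDF11. RAD51C averaged 8.99 ± 0.313 CPM in young and 7.85 ± 1.08 in senescent cells not given GDF11, and its log2 fold change was -0.20 (SE 0.11, adjusted p = 0.154) without and -0.15 (SE 0.11, adjusted p = 0.273) with GDF11. XRCC2 and RAD51C both act in homologous recombination, and RAD51C was called lower once replicate 1 was left out of every group (adjusted p = 0.0147 without and 0.0497 with GDF11). XRCC2 was called lower with GDF11 with the replicate block (log2 fold change -0.65, adjusted p = 0.0193), but numbers were not taken as pairs there. PALB2 averaged 13.1 ± 1.97 CPM in young and 12.7 ± 1.64 in senescent cells not given GDF11, and its log2 fold change was -0.05 (SE 0.12, adjusted p = 0.783) without and -0.08 (SE 0.12, adjusted p = 0.627) with GDF11. RFWD3 averaged 34.1 ± 8.65 CPM in young and 41.2 ± 10.3 in senescent cells not given GDF11, and its log2 fold change was 0.27 (SE 0.23, adjusted p = 0.347) without and 0.25 (SE 0.23, adjusted p = 0.400) with GDF11. PALB2 links BRCA1 to BRCA2, and RFWD3 is a ubiquitin ligase that acts on RPA. RFWD3 was called higher with GDF11 once replicate 1 was left out of every group (adjusted p = 0.0132).

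**Figure D3:**
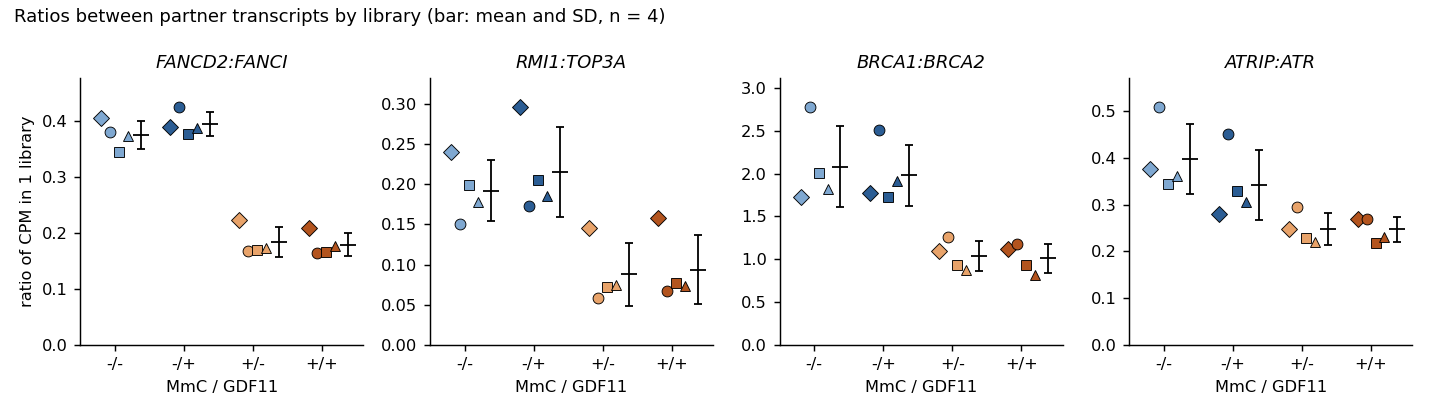
Ratio of CPM between partner transcripts within each library, by MmC/GDF11 group, with symbols for replicate number (diamond 1, circle 2, square 3, triangle 4) and bars for the mean and SD (n = 4). FANCD2:FANCI and BRCA1:BRCA2 fall into separate ranges in MmC- and MmC+ libraries, and RMI1:TOP3A and ATRIP:ATR do so within the groups without GDF11 and within those with it.

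Among the nucleases, the scaffold SLX4, the MUS81-EME1 pair and DCLRE1A were lower in MmC+ libraries while ERCC1 and ERCC4 were not called. SLX4 was at 10.8, 9.84, 10.8 and 15.4 CPM in young cells, 10.8, 10.1, 9.75 and 13.4 in young cells with GDF11, 8.39, 6.69, 5.62 and 5.77 in senescent cells and 7.74, 5.67, 5.88 and 5.93 in senescent cells with GDF11. SLX4 carries the other nucleases to the lesion, and its MmC+ libraries all lay below its MmC- libraries, with replicate 1 the highest MmC+ library. For SLX4 the log2 fold change was -0.82 (SE 0.17, adjusted p = 9.05e-04) without GDF11 and -0.80 (SE 0.17, adjusted p = 0.00110) with it. MUS81 was at 28.7, 37.6, 31.3 and 28.3 CPM in young cells, 31, 33.8, 35.7 and 31.4 in young cells with GDF11, 21.4, 24.4, 22.5 and 21.3 in senescent cells and 21.9, 23.1, 22.5 and 20.8 in senescent cells with GDF11. EME1 was at 4.37, 7.39, 6.95 and 9.91 CPM in young cells, 7.28, 6.25, 6.21 and 9.47 in young cells with GDF11, 1.86, 4.26, 3.83 and 4.05 in senescent cells and 1.60, 3.64, 4.64 and 3.86 in senescent cells with GDF11. MUS81 and EME1 form a nuclease that cuts branched DNA, and for both of them MmC+ and MmC- libraries did not overlap within either comparison. For MUS81 the log2 fold change was -0.49 (SE 0.09, adjusted p = 5.42e-04) without GDF11 and -0.58 (SE 0.09, adjusted p = 1.36e-04) with it. For EME1 the log2 fold change was -1.03 (SE 0.32, adjusted p = 0.0147) without GDF11 and -1.08 (SE 0.32, adjusted p = 0.0109) with it. The EME1 call without GDF11 was lost without replicate 4 of MmC-/GDF11- (adjusted p = 0.0558), its highest library.

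DCLRE1A was at 9.46, 8.65, 10.9 and 11.9 CPM in young cells, 11.9, 9.27, 11.1 and 11.2 in young cells with GDF11, 7.48, 7.22, 8.18 and 8.15 in senescent cells and 7.18, 7.85, 9.61 and 7.87 in senescent cells with GDF11. DCLRE1A is an exonuclease that digests past a crosslink, and its groups did not overlap without GDF11, while replicate 3 of MmC+/GDF11+ passed the lowest MmC-/GDF11+ library. For DCLRE1A the log2 fold change was -0.40 (SE 0.12, adjusted p = 0.0142) without GDF11 and -0.42 (SE 0.12, adjusted p = 0.0104) with it. DCLRE1B averaged 15.8 ± 3.33 CPM in young and 12.5 ± 2.54 in senescent cells not given GDF11, and its log2 fold change was -0.34 (SE 0.18, adjusted p = 0.127) without and -0.30 (SE 0.18, adjusted p = 0.176) with GDF11. DCLRE1B, the related nuclease also known as Apollo, was called lower without GDF11 with the replicate block (adjusted p = 0.0167). ERCC1 and ERCC4 (XPF) form the nuclease that makes the unhooking cut. ERCC1 averaged 80.8 ± 11.2 CPM in young and 81.9 ± 8.07 in senescent cells not given GDF11, and its log2 fold change was 0.02 (SE 0.11, adjusted p = 0.900) without and -0.04 (SE 0.11, adjusted p = 0.808) with GDF11. ERCC4 averaged 16.3 ± 1.95 CPM in young and 18.6 ± 1.21 in senescent cells not given GDF11, and its log2 fold change was 0.19 (SE 0.11, adjusted p = 0.172) without and 0.13 (SE 0.11, adjusted p = 0.369) with GDF11. ERCC1 was the member second highest per kb of exon in MmC-/GDF11- (median 13.9 CPM per kb). The nuclease FAN1 was counted at only 1.15 to 3.47 CPM, and 98.9% of the 31-base words of its exons also occur on alternate contigs of hg38, so its log2 fold changes of -0.12 (SE 0.28, adjusted p = 0.746) and 0.31 (SE 0.27, adjusted p = 0.373) rest on the reads that the counting assigned to one place.

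In the translesion group MAD2L2 fell in both comparisons, and REV1 and HELQ moved little. MAD2L2 was at 29.8, 52.7, 43 and 46.5 CPM in young cells, 35.3, 45.5, 46.1 and 46.7 in young cells with GDF11, 20.3, 28, 26.5 and 28.1 in senescent cells and 20.2, 26, 26.2 and 27 in senescent cells with GDF11. MAD2L2 (REV7) bridges REV1 to the catalytic subunit REV3L of polymerase zeta, and its MmC+ and MmC- libraries did not overlap. The log2 fold change was -0.74 (SE 0.16, adjusted p = 0.00135) without GDF11 and -0.80 (SE 0.16, adjusted p = 7.12e-04) with it. REV1 was at 20.7, 17.2, 20.6 and 21.7 CPM in young cells, 20.8, 17.4, 19.2 and 21.4 in young cells with GDF11, 17.8, 15.8, 17.3 and 17.1 in senescent cells and 17.2, 16.5, 17.2 and 17.8 in senescent cells with GDF11. REV1, a scaffold polymerase, was slightly lower in MmC+ libraries, which overlapped those of MmC-. Its log2 fold change was -0.24 (SE 0.09, adjusted p = 0.0406) without GDF11 and -0.20 (SE 0.09, adjusted p = 0.0788) with it. HELQ was at 10.8, 9.75, 11.8 and 10.5 CPM in young cells, 12, 11.8, 12.5 and 11 in young cells with GDF11, 10.8, 12.8, 13.3 and 14.9 in senescent cells and 11.7, 12.3, 13.3 and 13.6 in senescent cells with GDF11. HELQ, a helicase gene at chr4:83407343-83455855 (hg38, minus strand), was the only member called higher, and without GDF11 its libraries overlapped from 10.8 to 11.8 CPM. For HELQ the log2 fold change was 0.27 (SE 0.10, adjusted p = 0.0393) without GDF11 and 0.11 (SE 0.10, adjusted p = 0.405) with it.

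The calls of REV1 and HELQ without GDF11 were close to the threshold. REV1 was not called when any one of 7 of the 8 libraries was left out (adjusted p = 0.0551 to 0.134), the exception being replicate 2 of MmC-/GDF11-. HELQ was not called when replicates 2 or 4 of MmC-/GDF11- or replicates 2, 3 or 4 of MmC+/GDF11- were left out (adjusted p = 0.0548 to 0.122). A difference of HELQ between cells with and without GDF11 was not called either (interaction below). REV3L was at 33.0 to 96.9 CPM over the 16 libraries, with the widest values within MmC-/GDF11-, and its log2 fold changes were -0.26 (SE 0.32, adjusted p = 0.539) and -0.19 (SE 0.32, adjusted p = 0.652). POLN, a polymerase, was at 0.183 to 0.572 CPM and shares 49.3% of its exonic bases with other genes on the same strand, among them HAUS3, so its estimates of 0.52 (SE 0.31, adjusted p = 0.189) and 0.39 (SE 0.32, adjusted p = 0.325) are uncertain. POLN was called higher without GDF11 when replicate 1 of MmC-/GDF11- was left out (log2 fold change 0.93, adjusted p = 0.0126).

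RMI1 had the smallest adjusted p of the 41 members in both comparisons. RMI1 was at 12.3, 12.6, 15.2 and 17.6 CPM in young cells, 16.3, 14.7, 14.9 and 17.3 in young cells with GDF11, 5.53, 5.72, 6.23 and 7.49 in senescent cells and 5.72, 6.22, 7.29 and 7.14 in senescent cells with GDF11. RMI1, at chr9:83980798-84004074 (hg38, plus strand), is a structural partner of the BLM helicase and the topoisomerase TOP3A, which together dissolve joined DNA molecules, and its highest MmC+ library lay well below its lowest MmC- library. The log2 fold change was -1.21 (SE 0.13, adjusted p = 4.26e-06) without GDF11 and -1.26 (SE 0.13, adjusted p = 2.81e-06) with it. BLM averaged 6.91 ± 2.63 CPM in young and 3.64 ± 1.48 in senescent cells not given GDF11, and its log2 fold change was -0.92 (SE 0.39, adjusted p = 0.0640) without and -0.85 (SE 0.39, adjusted p = 0.0838) with GDF11. Replicate 1 of the MmC+ groups held 1.43 and 1.48 CPM of BLM, where the other MmC+ libraries had 4.12 to 5.12. BLM was called lower without GDF11 with the replicate block (adjusted p = 0.00623) and when replicate 1 was left out of every group (adjusted p = 0.00199, and 0.0136 with GDF11). The tools DESeq2 and limma-voom also called BLM lower without GDF11, with all libraries and no block. With GDF11 its MmC+ and MmC- libraries did not overlap, and the block called it lower there too (adjusted p = 0.00569).

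TOP3A averaged 77.3 ± 19.8 CPM in young and 80.7 ± 29.3 in senescent cells not given GDF11, and its log2 fold change was 0.06 (SE 0.33, adjusted p = 0.894) without and 0.07 (SE 0.33, adjusted p = 0.871) with GDF11. TOP3A was at 36.2 and 37.9 CPM in MmC+ replicate 1 and at 86.3 to 101 in the other MmC+ libraries, and it was also lowest in replicate 1 of both MmC- groups, at 51.0 and 55.1. RMI2 averaged 7.78 ± 1.87 CPM in young and 6.92 ± 2.21 in senescent cells not given GDF11, and its log2 fold change was -0.17 (SE 0.30, adjusted p = 0.667) without and -0.06 (SE 0.30, adjusted p = 0.876) with GDF11. RMI2 binds RMI1, and its MmC+ replicate 1 was likewise the lowest library. The ratio of RMI1 to TOP3A CPM was 0.151 to 0.240 in young and 0.0587 to 0.146 in senescent cells not given GDF11, the highest of each group being replicate 1. Within replicate 1 that ratio was 0.240 without and 0.146 with MmC, and in the other numbers 0.151 to 0.199 and 0.0587 to 0.0740.

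ATRIP was at 10.8, 12.5, 12.3 and 14.8 CPM in young cells, 10.6, 13.5, 9.74 and 12 in young cells with GDF11, 8.33, 9.94, 8.83 and 9.27 in senescent cells and 8.35, 9.65, 8.97 and 9.34 in senescent cells with GDF11. ATRIP brings the kinase ATR to stalled forks, and its MmC+ and MmC- libraries did not overlap within either comparison, with the nearest at 9.65 and 9.74 CPM with GDF11. Its log2 fold change was -0.47 (SE 0.12, adjusted p = 0.00383) without GDF11 and -0.33 (SE 0.12, adjusted p = 0.0284) with it. Of the exonic bases of ATRIP 26.7% lie in the neighbouring TREX1 on the same strand, so reads of the 2 genes may be shared. ATR averaged 32.5 ± 7.37 CPM in young and 37 ± 4.22 in senescent cells not given GDF11, and its log2 fold change was 0.19 (SE 0.15, adjusted p = 0.337) without and 0.13 (SE 0.15, adjusted p = 0.527) with GDF11. The ATRIP call with GDF11 was lost when replicates 2 or 4 of MmC-/GDF11+ or replicates 1, 3 or 4 of MmC+/GDF11+ were left out (adjusted p = 0.0554 to 0.125).

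Other calls also turned on single libraries or numbers. Without replicate 4 of MmC-/GDF11-, 14 members were called without GDF11 (34.1%, against 41.6% of all genes), and FANCA (adjusted p = 0.0656) and DCLRE1A (0.0616) were lost beside EME1, REV1 and HELQ. With replicate 1 left out of every group, 24 members were called without and 21 with GDF11, where 51.7% and 52.6% of all genes were called, and REV1 and DCLRE1A respectively were lost. FANCA was not called in either comparison without replicate number 2, 3 or 4 (adjusted p = 0.0522 to 0.1004 without and 0.0562 to 0.0690 with GDF11). With GDF11 the calls of FAAP24 without number 3 (adjusted p = 0.0904), and of EME1 (0.0657) and DCLRE1A (0.0722) without number 4, were also lost. Without GDF11 EME1 was not called without number 2, 3 or 4 (adjusted p = 0.0613 to 0.0874), and DCLRE1A was not without number 3 or 4 (0.0783 and 0.106). Exons of FANCA (19.6%, ZNF276), MAD2L2 (17.2%), EME1 (16.4%), MUS81 (14.1%), WDR48 (20.2%), ERCC1 (28.6%, POLR1G) and DCLRE1A (32.6%) overlap genes on the opposite strand, and the strand setting of the counting is not given in the sources used here, so for these genes reads of the overlapping gene may be included.

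Of 32 further genes of the pathway, outside the 41, 31 were tested, with medians of -0.43 without and -0.42 with GDF11. In both comparisons 12 were lower (38.7%, against 22.4% and 23.3% of all genes) and 0 higher. RAD51D, which also acts in homologous recombination, averaged 16 ± 1.20 CPM in young and 8.07 ± 1.25 in senescent cells not given GDF11 (log2 fold change -0.99, SE 0.12, adjusted p = 9.62e-06). CENPX, which binds FANCM, averaged 62 ± 17.8 and 25.2 ± 3.03 CPM (-1.30, SE 0.18, adjusted p = 3.34e-05). ETAA1, an activator of ATR, averaged 25.1 ± 2.74 and 14.4 ± 2.17 CPM (-0.80, SE 0.12, adjusted p = 8.25e-05).

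Nucleotide excision repair, which removes damage on 1 strand, was represented by 19 genes tested, with medians of -0.03 without and -0.06 with GDF11. Of these 3 were lower (15.8%) and 3 higher (15.8%) without GDF11, and 4 (21.1%) and 2 (10.5%) with it. The damage sensor DDB2 rose from 29.4 ± 3.86 to 57.3 ± 12.9 CPM (0.96, SE 0.18, adjusted p = 4.77e-04), and the ligase LIG1 fell from 37.6 ± 8.96 to 20.1 ± 0.764 (-0.91, SE 0.14, adjusted p = 1.08e-04). GTF2H5, a subunit of the repair helicase complex, fell from 48 ± 6.63 to 31.8 ± 5.68 CPM (-0.60, SE 0.16, adjusted p = 0.00581). Of 15 end joining genes 7 were lower (46.7%) and 2 higher (13.3%) in both comparisons. Of all genes 22.4% and 23.3% were lower without and with GDF11, and 22.9% and 23.4% were higher. The share of end joining genes called lower was thus similar to that of the members (43.9%). PAXX fell from 25.2 ± 3.15 to 13.4 ± 0.971 CPM (-0.91, SE 0.10, adjusted p = 2.85e-06) and NHEJ1 from 5.84 ± 0.194 to 3.33 ± 0.377 (-0.81, SE 0.12, adjusted p = 4.25e-05), both being factors that hold broken ends together. TP53BP1, which favours end joining over recombination, rose from 68.6 ± 3.11 to 100.1 ± 4.49 CPM (0.55, SE 0.09, adjusted p = 1.16e-04).

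**Figure D4:**
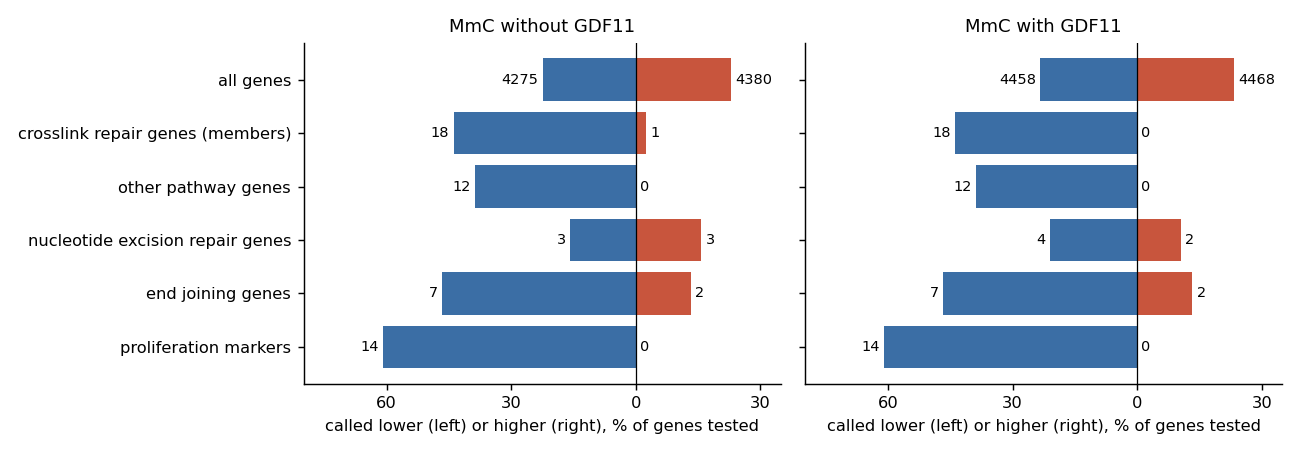
Percentage of genes tested that were called lower (blue, to the left) or higher (red, to the right) in MmC+ against MmC- libraries, for all 19103 genes, the 41 members and 4 other lists, without GDF11 on the left panel and with GDF11 on the right, with the number of genes beside each bar. The members, the other pathway genes and the proliferation markers extend almost wholly to the left, and the end joining genes mostly so, while all genes are called about as often in either direction.

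Many crosslink repair genes are known to be transcribed most in dividing cells, and markers of proliferation moved with the members. Of 23 such markers 14 were lower and 0 higher in both comparisons (60.9%), with medians of -1.38 and -1.39. PLK1, a mitotic kinase, averaged 80.8 ± 26.7 CPM in young and 6.51 ± 2.06 in senescent cells not given GDF11 (-3.64, SE 0.30, adjusted p = 4.39e-07). The mitotic cyclin CCNB1 averaged 135.9 ± 44.9 and 21.1 ± 5.77 CPM (-2.68, SE 0.29, adjusted p = 4.89e-06), and the replicative helicase subunit MCM6 72.6 ± 16.1 and 28 ± 3.15 CPM (-1.38, SE 0.15, adjusted p = 4.20e-06). The summed level of the 23 markers was 1100 to 2420 CPM in young cells and 1652 to 2191 in young cells with GDF11, against 561 to 1123 in senescent cells and 558 to 1118 in senescent cells with GDF11, and none of them was at 0 in every library. The summed level of the 41 members was 785 to 1053, 889 to 1014, 604 to 821 and 589 to 818 CPM in the same groups. The part of proliferation in the members' result was not tested. Markers of other cell types summed to 54.1 to 77.7 CPM in young and 44 to 49.4 in senescent cells not given GDF11, the epithelial keratin KRT18 being the largest of them in young cells (43.6 ± 7.96 and 15.7 ± 4.23 CPM), with the endothelial CDH5 at 2.42 ± 0.468 and 0.850 ± 0.116 and PECAM1 at 5.96 ± 1.20 and 14.4 ± 5.90. Of these 12 markers 8 were tested, and 3 were higher and 2 lower without GDF11 and 5 and 2 with it. The part of these markers in the result was not tested.

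GDF11 moved none of the 41 members detectably. With edgeR 0 of 41 were called in young MSCs and 0 in senescent ones. Of all 19103 genes 0% were called in each. An unadjusted p under 0.05 was seen for 0 members in either, against 226 and 96 of all genes. DESeq2 and limma-voom also called 0 members in both, with 1 of all genes, VARS1, called by DESeq2 in young MSCs and none otherwise. At an unadjusted p under 0.05 DESeq2 found 0 members in young and 1, FAN1, in senescent MSCs, and limma-voom 0 in both. The 4 libraries with GDF11 lay wholly on 1 side of the 4 without for 0 members in young and 0 in senescent MSCs, against 0.89% and 0.503% of all genes.

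Estimates for GDF11 ran from -0.14 (ATRIP) to 0.15 (FAN1) in young and from -0.23 (POLN) to 0.58 (FAN1) in senescent MSCs. The median half-width of their 95% intervals was 0.38 in both. For 40 of 41 members in young MSCs the interval lay within a 2-fold change either way, the exception being BRCA2, and for 39 in senescent MSCs, with BRCA2 and FAN1 as exceptions. With the replicate block, which applies in senescent MSCs, where same-numbered libraries were taken as pairs, the median half-width was 0.25 and the interval of FAN1 alone passed a 2-fold change. Effects within these intervals are not excluded by 4 libraries a group. The interaction, which asks whether the MmC effect differed with GDF11, called 0 of 41 members and 0% of all genes with edgeR, DESeq2 and limma-voom. At an unadjusted p under 0.05 edgeR found 0 members and 172 of all genes, and the estimates ran from -0.19 (FANCM) to 0.43 (FAN1), with 8 members whose interval passed a 2-fold change. The genes called in only 1 of the MmC comparisons (REV1, HELQ and FANCL) were thus not shown to differ between them.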

How the data were processed

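The authors mapped reads to hg38 (HISAT2 2.2.1, SAMtools 1.9) and deposited featureCounts 2.0.1 counts on the genes of GENCODE 38 for 16 libraries, as raw values with no normalization. Strand, pair and multimapping settings are not given in the sources used here.

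Tests were made with edgeR 4.0.16 in R 4.3.3. Its function filterByExpr (minimum count 10, minimum total 15) kept 19103 genes, libraries were TMM-scaled, and a robust quasi-likelihood fit (two-sided tests) held 1 mean per group over all 16 libraries, with Benjamini-Hochberg adjustment over all genes kept. The study's text names no test. MmC was compared in cells without and in cells with GDF11, GDF11 in the young and the senescent cells, and the interaction was tested. Replicates are cultures of 1 line, so p-values measure the spread between them. No library was a copy of another: libraries differed by at least 56.9 times sampling noise within groups and 14.7 times between groups.

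Same-numbered libraries were taken as pairs where every pair's deviations from the group means correlated above 0.1 across genes, a hint from the data. The lowest r was 0.113 for MmC without GDF11 and 0.448 for the GDF11 effect in senescent cells, but 0.0293 for MmC with GDF11 and 0.0982 for GDF11 in young MSCs, which were not taken as paired. The values 0.113 and 0.0982 lie close to the cut on either side. In each of these comparisons 6 of 8 libraries correlated best with their own number, except for GDF11 in senescent cells, where 8 did.

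Values of each library are given for members called in either MmC comparison and for FANCD2, FANCI, FANCA, BRCA1 and BRCA2, and of other lists the 3 genes of smallest p are named. The members and lists were chosen with earlier results of these data known. Overlaps and exon lengths came from GENCODE 44, in which 186 of 60649 identifiers had no match, and promoter windows from RefSeq (GRCh38.p14). Alternatives were other scalings and filters, DESeq2 1.42.0, limma-voom (limma 3.58.1), a test against a 2-fold change, the replicate block, and libraries left out. The steps were tested on simulated counts drawn without any effect of replicate number. How they perform with such an effect was not tested.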

Additional observations from a re-analysis of the deposited data

Results flagged for a closer look

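In each group of 4 libraries, the highest or lowest value of each member was set against the others by Dixon's test, which chance passes in about 1 of 20 groups. Of 164 groups, 17 held a library far from the other 3, and in 15 of these 17 it was replicate 1, in 14 cases within the MmC+ groups. In MmC+/GDF11+ replicate 1 was the low library for FANCA (3.53 CPM, others 8.19 to 8.88), FANCL (6.82, others 8.23 to 8.5), UBE2T (6.34, others 11.5 to 12.4), FANCD2 (3.84, others 7.09 to 7.68) and BRIP1 (5.85, others 11.9 to 12.1). The same library was low for RFWD3 (24.9, others 44.2 to 47.7), DCLRE1B (8.82, others 13.2 to 13.9), MAD2L2 (20.2, others 26 to 27.0), RMI2 (2.99, others 7.53 to 8.33) and TOP3A (36.2, others 93.0 to 98.1). It was the high library for FAAP100 (31.5, others 23.3 to 24) and SLX4 (7.74, others 5.67 to 5.93). In MmC+/GDF11- replicate 1 was low for UBE2T (5.88, others 10.7 to 11.3) and BLM (1.43, others 4.21 to 4.51), and replicate 3 was low for FANCC (7.19, others 8.13 to 8.27). In MmC-/GDF11+ replicate 1 was low for MAD2L2 (35.3, others 45.5 to 46.7) and replicate 4 was high for BLM (8.91, others 6.06 to 6.35). The cause of these values was not tested.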

How the results depend on the processing

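Members called lower stayed within 1.5 times their number under the alternative scalings, filters, tools, block and left-out libraries. They numbered 14 to 22 without and 13 to 19 with GDF11 when a library or a number was left out. Of all genes 13.6% to 25.6% and 13.2% to 26.2% were then called lower, so the share of all genes moved as well. The test against a 2-fold change was the exception, with 0 called without GDF11 (0 lower, 0 higher) and 1 called, lower, with it. Of all genes 1.59% and 1.51% were called lower in that test. Some members changed although the counts held. FANCA was not called in either comparison with no filter on low counts, where 20.4% and 20.9% of all genes were called. With GDF11 FANCL and ATRIP were lost under both alternative filters and with only the libraries compared, and FANCL also with upper-quartile scaling. Without GDF11 REV1 was lost under both alternative scalings, both filters and with only the libraries compared. Members called higher without GDF11 numbered 0 with no filter on low counts and 0 with only the libraries compared in the fit, and 0 to 2 with a library or number left out, as they did with GDF11. With replicate numbers as a block, 24 members were called without GDF11, where 57.9% of all genes were. With GDF11, where the numbers were not taken as pairs and 6 of 8 libraries correlated best with their own number, 26 were called, where 59% of all genes were, gaining FANCB, FANCE, FANCI, BRIP1, XRCC2, DCLRE1B, REV1 and BLM. No member was called for GDF11 or the interaction under any alternative. Signs turned only for uncalled members. With GDF11 the log2 fold change of WDR48 was 0.0188 with upper-quartile scaling and 0.0243 with at least 10 counts in every library, that of ERCC1 0.00794 and 0.0137, and that of TOP3A -0.00274 with the replicate block and -0.0077 with limma-voom. With libraries left out, estimates without GDF11 ranged from -0.027 to 0.073 (WDR48), -0.11 to 0.051 (PALB2), -0.034 to 0.13 (ERCC1), -0.49 to 0.018 (REV3L), -0.34 to 0.038 (RMI2) and -0.082 to 0.31 (TOP3A). With GDF11 they ranged from -0.051 to 0.0044 (WDR48), -0.12 to 0.0196 (PALB2), -0.085 to 0.0396 (ERCC1), -0.12 to 0.56 (FAN1), -0.21 to 0.19 (RMI2) and -0.041 to 0.33 (TOP3A). The cause of these changes was not tested. POLN, at 0.183 to 0.572 CPM, was counted at little depth.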
